A study of Homo sapiens with 4 samples.

Results

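HMOX1, NFE2L2 (the gene of the transcription factor NRF2), KEAP1 and 7 genes that NRF2 is known to drive, NQO1, GCLC, GCLM, TXNRD1, SRXN1, TXN and OSGIN1, were followed in RPMI82266 myeloma cells given an antisense oligonucleotide against CELF2. These 10 genes are 10 of the 78932 Ensembl genes in the count table. They were named by symbol, each symbol had 1 row, and the set was chosen from the same contrast of CELF2 ASO against control that is described here, with its read counts already known. Differences of these 10 genes are therefore given as a description with no p-values, and calls of them are not used as tests. HMOX1 was 16.7-fold lower with the CELF2 ASO and NQO1 was 3.66-fold lower. KEAP1, GCLM, TXN, TXNRD1 and OSGIN1 were 1.27-fold to 1.67-fold lower, GCLC had nearly the same level in both groups, and NFE2L2 was 1.27-fold higher.

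RPMI82266 is the labels' spelling of RPMI8226, a human line of multiple myeloma, a cancer of plasma cells. One group of 2 libraries came from cells transfected with a control LNA ASO, a locked nucleic acid antisense oligonucleotide, whose dose the labels do not give. The other group of 2 came from the same line transfected with 5 nM of CELF2 LNA ASO, and both were collected at 72 hours. CELF2 encodes an RNA-binding protein that acts in splicing and mRNA stability. No label says that the libraries of a group came from separate cultures, so the spread between them may be technical, and none says whether the number in a label marks a culture or an oligonucleotide.

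NRF2 is a transcription factor that the adaptor protein KEAP1 holds in the cytoplasm and delivers to a CUL3 ubiquitin ligase for degradation. Oxidants and electrophiles modify KEAP1, NRF2 then enters the nucleus with a small MAF protein, and the pair binds antioxidant response elements (ARE) near genes for glutathione and thioredoxin metabolism, quinone reduction and heme breakdown. BACH1 occupies many of the same elements as a repressor until heme displaces it, and HMOX1 is its best known target. Plasma cells make large amounts of disulfide-bonded antibody, and myeloma cells rely on such redox systems.

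The targeted transcript was lower in both CELF2 ASO libraries. CELF2 had 128 and 128 CPM (read counts relative to the library's total, scaled for library composition) in the control libraries and 56.6 and 48.8 CPM in the CELF2 ASO libraries, a log2 fold change of -1.28 ± 0.09 (SE; edgeR adjusted p = 3.74e-05). Total counts ran from 23599190 to 29161298 per library. Of 19511 genes tested, 55.6% were called at an adjusted p under 0.05, 27.6% higher and 28% lower, so a called gene is common in these data. The split of 5388 higher and 5460 lower was 6333 and 4539 with scaling by library totals alone, and 3993 and 4732 with DESeq2. Without control library 1, 3564 genes were called higher. Between the CELF2 ASO libraries the biological coefficient of variation was 13.7%, and between the control libraries 3.58%. All 10 plasma cell markers were detected and tested, and they moved in both directions. By edgeR, 4 fell, SDC1 2.34-fold (adjusted p = 0.012), TNFRSF17 2-fold (adjusted p = 0.0386), PRDM1 1.86-fold (adjusted p = 0.000166) and MZB1 1.37-fold (adjusted p = 0.0334). Another 4 rose, CD38 2.43-fold (edgeR adjusted p = 0.00184), IRF4 1.71-fold (adjusted p = 0.000118), POU2AF1 1.61-fold (adjusted p = 0.000283) and SLAMF7 1.41-fold (adjusted p = 0.00434). XBP1 and JCHAIN were not called. The summed level of all 10 plasma cell markers was 3520 and 3770 CPM in control and 4470 and 3910 CPM with the CELF2 ASO. Markers of other blood cells were low, with FCGR1A the highest at 3.45 CPM in control library 2. The myeloid genes LYZ and S100A8 had no read in any library. Of 4 tested myeloid markers 3 were called lower, and CSF1R was not called. S100A9 went from 1.43 and 1.53 CPM to 0.0721 and 0 CPM (edgeR adjusted p = 0.000238), on 0 to 40 reads per library. FCGR1A fell 4.79-fold (edgeR adjusted p = 0.000231) and CD14 1.91-fold (edgeR adjusted p = 0.0133). The summed level of 9 myeloid and macrophage markers was 8.29 and 8.52 CPM in control and 3.06 and 3.47 CPM with the CELF2 ASO. Summed T and NK cell markers stayed between 1.36 and 1.84 CPM and erythroid markers between 0.143 and 0.335 CPM. The stromal and epithelial list, mostly EPCAM and KRT18, summed to 127 and 123 CPM in control and to 93.2 and 95.4 CPM with the CELF2 ASO. In it EPCAM fell 1.85-fold (edgeR adjusted p = 0.000504), COL1A1 fell 2.28-fold (edgeR adjusted p = 0.00884) and KRT8 rose 2.57-fold (edgeR adjusted p = 0.000724). The part of these marker differences in the values that follow was not tested.

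Promoters of the genes were searched for 2 elements, since most of the genes were lower together. RefSeq promoter windows on GRCh38.p14, 250 bases before to 50 after a start site, were found for 9 of the 10 genes, with HMOX1 the gene without an entry, and gave 12 windows. The ARE core was searched as TGACNNNGC on both strands, and the C/EBP-ATF element read by ATF4 as TGATGNAA on both strands. An ARE core was present in 4 of the 12 windows, which belong to GCLM, TXNRD1 and KEAP1, against 13.3% of 35116 windows of all genes. The ATF4 element was in none of the 12 windows and in 3.62% of all windows. The windows of NFE2L2, NQO1, GCLC, TXN, SRXN1 and OSGIN1 had no ARE core, and of these NQO1, TXN and OSGIN1 were also lower. The 4 windows with an ARE core are shown with the core in capitals, 5′ to 3′ on the gene's own strand.
GCLM (chr1:93909381-93909680, strand minus): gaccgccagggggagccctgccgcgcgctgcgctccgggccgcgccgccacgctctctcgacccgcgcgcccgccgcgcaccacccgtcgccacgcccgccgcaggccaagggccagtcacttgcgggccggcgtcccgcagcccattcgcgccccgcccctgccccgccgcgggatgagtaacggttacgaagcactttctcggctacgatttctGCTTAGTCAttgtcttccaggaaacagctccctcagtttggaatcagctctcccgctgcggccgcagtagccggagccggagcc
TXNRD1, upstream start (chr12:104215529-104215828, strand plus): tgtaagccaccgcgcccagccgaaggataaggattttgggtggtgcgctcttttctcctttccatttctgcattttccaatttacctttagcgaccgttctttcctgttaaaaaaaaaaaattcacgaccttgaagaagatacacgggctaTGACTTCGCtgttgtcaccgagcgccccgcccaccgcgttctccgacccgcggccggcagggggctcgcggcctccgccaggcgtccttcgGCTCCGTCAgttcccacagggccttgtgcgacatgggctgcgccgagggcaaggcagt
TXNRD1, downstream start (chr12:104286782-104287081, strand plus): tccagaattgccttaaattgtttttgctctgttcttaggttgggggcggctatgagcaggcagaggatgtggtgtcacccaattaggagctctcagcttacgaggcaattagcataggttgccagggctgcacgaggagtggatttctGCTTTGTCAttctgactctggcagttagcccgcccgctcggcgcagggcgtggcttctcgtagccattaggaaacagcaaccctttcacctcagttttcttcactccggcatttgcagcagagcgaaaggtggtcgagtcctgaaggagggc
KEAP1 (chr19:10502722-10503021, strand minus): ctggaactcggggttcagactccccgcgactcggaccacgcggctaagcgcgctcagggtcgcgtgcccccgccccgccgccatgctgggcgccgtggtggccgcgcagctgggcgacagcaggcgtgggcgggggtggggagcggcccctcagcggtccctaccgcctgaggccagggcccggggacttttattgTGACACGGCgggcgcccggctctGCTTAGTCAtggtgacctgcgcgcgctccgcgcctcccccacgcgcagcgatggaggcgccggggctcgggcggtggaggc
The other KEAP1 window had no match. GCLM and KEAP1 carried the same 9 bases in reverse orientation, TGACTAAGC, beginning 34 and 31 bases before their start sites. A match describes letters in the window and was not tied to binding by any measurement here. Known ARE sites of several of these genes lie farther upstream than the window reaches.

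**Figure D1:**
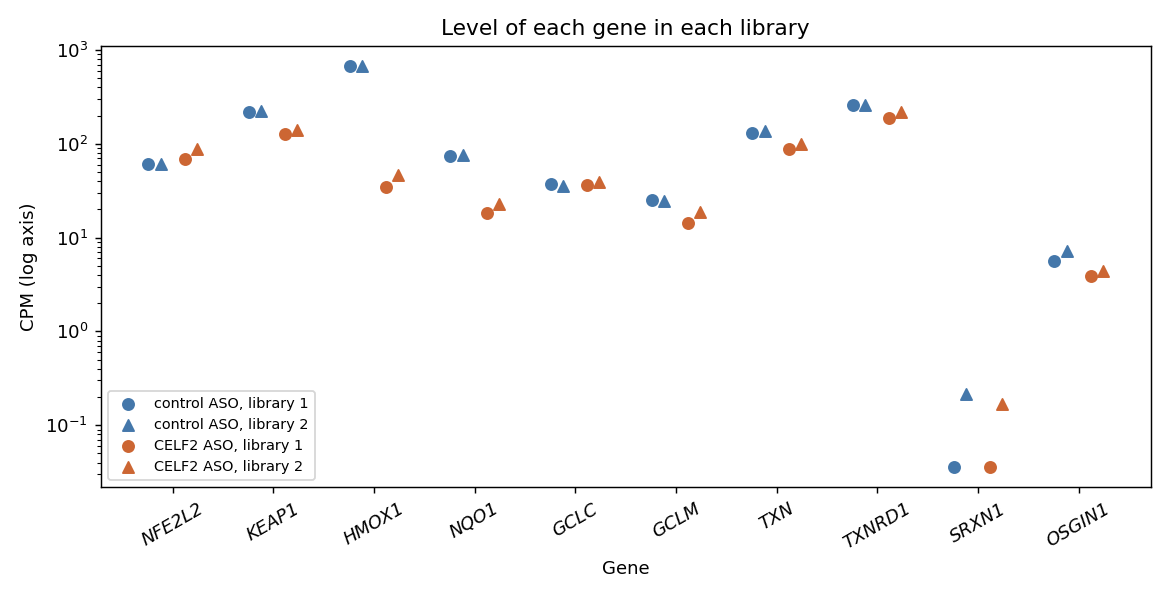
Level of each of the 10 genes in each library, in CPM on a log axis, with circles and triangles for libraries 1 and 2, blue for the control ASO and orange for the CELF2 ASO. HMOX1 sits at 677 and 672 CPM in control and at 34.4 and 46.3 CPM with the CELF2 ASO, while the SRXN1 points stand for 1 to 5 reads each.

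HMOX1 (ENSG00000100292, chromosome 22, 35380361 to 35394214, plus strand) encodes heme oxygenase 1, which opens heme to biliverdin, iron and carbon monoxide. It had 677 and 672 CPM in the control libraries and 34.4 and 46.3 CPM in the CELF2 ASO libraries. Both CELF2 ASO libraries lay far below both control libraries, 19.6-fold and 14.6-fold below the control mean. On the log2 scale this was -4.06 ± 0.15 (SE). In bulk RNA, fewer cells with the transcript and less transcript per cell cannot be told apart. The difference rested on 954 and 1106 reads against 18939 and 15766. Only 22 of the 19511 tested genes had a lower log2 fold change, and among the 2251 genes with at least 100 CPM in control only 2 did. HMOX1 went from 0.0649% and 0.0644% of all reads to 0.00366% and 0.00469%.

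Per kilobase of merged exon, HMOX1 was the most abundant of the 10 genes in control and the fourth with the CELF2 ASO. Its control level was 280 CPM per kb, which ranked 152 among 17706 tested genes with a known exon length, followed by TXN at 118, KEAP1 at 58.7, TXNRD1 at 38.6 and NQO1 at 23.1 CPM per kb. With the CELF2 ASO it was at 16.8 CPM per kb, rank 2436, behind TXN at 82.1, KEAP1 at 35.2 and TXNRD1 at 30.4 CPM per kb. In that group HMOX1, with 14.3 and 19.2 CPM per kb, was above NFE2L2, with 11.5 and 14.7 CPM per kb, in each library. In plain CPM HMOX1 was below NFE2L2 there, with 34.4 and 46.3 against 69 and 87.6 CPM. The difference between these genes was not tested. At the lower end GCLM and GCLC stood at 4.57 and 4.23 CPM per kb in control and at 3.07 and 4.36 CPM per kb with the CELF2 ASO. In plain CPM GCLC was above GCLM in both groups, with means of 36.6 against 24.7 in control and 37.7 against 16.6 with the CELF2 ASO. Merged exons join all annotated transcripts of a gene, so the order of genes per kilobase depends on that choice of length. OSGIN1 had 1.85 and 1.2 CPM per kb.

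**Figure D2:**
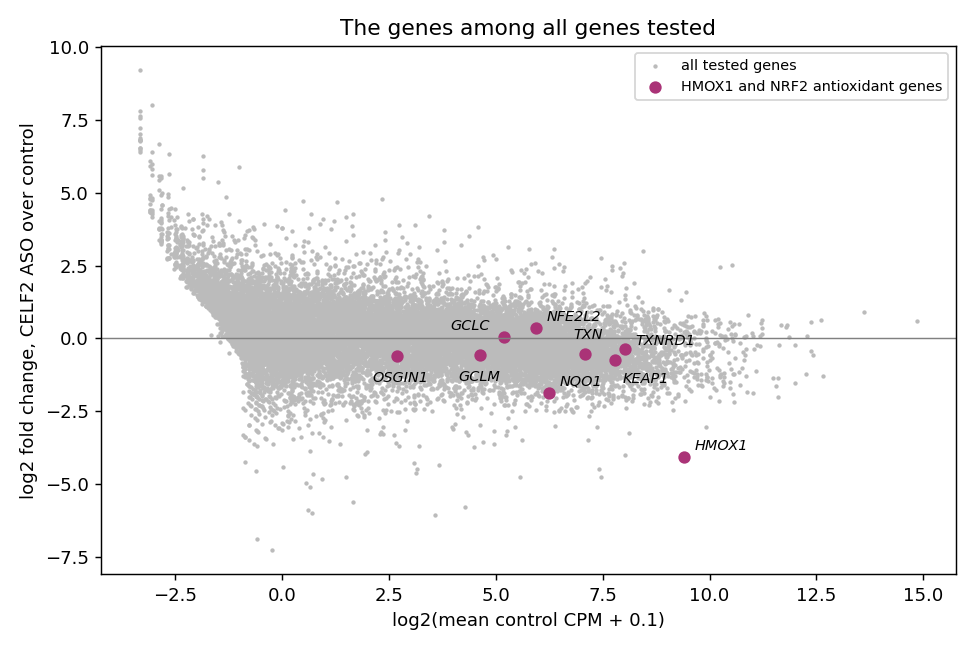
Log2 fold change of all 19511 tested genes (grey) against the log2 of the mean control CPM plus 0.1, with 9 of the genes marked. HMOX1 lies at -4.06 near the lower edge of the grey points, and the next lowest marked gene is NQO1 at -1.87.

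The pattern of HMOX1 over the 4 libraries was compared with 10584 protein-coding genes by the Euclidean distance between log2 CPM values centred on each gene's mean. The nearest 5 were CXCR3, H2BC14, H3C12, ACOT7 and TNFRSF8, at distances of 0.31 to 0.86 log2 units. CXCR3, a chemokine receptor, had 13 and 12.4 CPM in control and 0.613 and 0.628 CPM with the CELF2 ASO, a log2 fold change of -4.34 ± 0.18 (SE). ACOT7, an acyl-CoA thioesterase, went from 260 and 257 CPM to 19.9 and 12 CPM, and TNFRSF8, the surface receptor CD30, from 47.9 and 49.2 CPM to 4.98 and 3.56 CPM. In these last 2 genes CELF2 ASO library 1 was the higher of the pair, the opposite of HMOX1. H2BC14 and H3C12 are histone genes with near-identical copies, so their single levels are uncertain. With 4 libraries in 2 groups this likeness mostly records a difference of similar size.

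The 2 regulators differed less between the groups. NFE2L2 (ENSG00000116044, chromosome 2, 177227595 to 177392697, minus strand) had 61.2 and 61.5 CPM in control and 69 and 87.6 CPM with the CELF2 ASO. Its groups did not overlap, but the CELF2 ASO libraries were 1.12-fold and 1.43-fold above the control mean, so the log2 fold change of 0.35 ± 0.12 (SE) came mostly from library 2. It was 0.15 without CELF2 ASO library 2 and 0.52 without CELF2 ASO library 1. In GENCODE 29, NFE2L2 shares 1054 exon bases with AC019080.1, a transcript on the same strand that had 2.89 and 2.3 CPM in control and 7.97 and 7.2 CPM with the CELF2 ASO. Reads in the shared bases cannot be assigned from the table.

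KEAP1 (ENSG00000079999, chromosome 19, 10486120 to 10503741, minus strand), the gene of the NRF2 inhibitor, had 218 and 224 CPM in control and 126 and 139 CPM with the CELF2 ASO. Both CELF2 ASO libraries were below both controls, with a log2 fold change of -0.74 ± 0.08 (SE). NRF2 is controlled mainly through its protein, which RNA counts do not measure.

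NQO1 (ENSG00000181019, chromosome 16, 69706996 to 69726951, minus strand) encodes a quinone reductase that is widely used as a readout of NRF2. It had 74.6 and 75.9 CPM in control and 18.1 and 23 CPM with the CELF2 ASO. The groups were well apart, and its log2 fold change of -1.87 ± 0.12 (SE) was the second lowest of the set.

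Glutamate-cysteine ligase, the first step of glutathione synthesis, has a catalytic subunit, GCLC, and a modifier subunit, GCLM. GCLC had 37.8 and 35.4 CPM in control and 36.1 and 39.2 CPM with the CELF2 ASO. Its groups overlapped, and the log2 fold change was 0.04 ± 0.09 (SE). GCLM had 25.1 and 24.4 CPM in control and 14.5 and 18.8 CPM with the CELF2 ASO, a log2 fold change of -0.58 ± 0.14 (SE). The groups of GCLM did not overlap. The difference between the 2 subunits was not tested.

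The thioredoxin genes were moderately lower where they could be measured. TXN, which encodes the disulfide reductant thioredoxin, had 132 and 138 CPM in control and 88.2 and 99.3 CPM with the CELF2 ASO, a log2 fold change of -0.53 ± 0.08 (SE). TXNRD1, the selenoenzyme that reduces thioredoxin with NADPH, had 258 and 261 CPM in control and 188 and 219 CPM with the CELF2 ASO, a log2 fold change of -0.35 ± 0.09 (SE). Neither gene's groups overlapped. SRXN1, sulfiredoxin, which restores overoxidised peroxiredoxins, had 1 and 5 reads in control and 1 and 4 with the CELF2 ASO and was removed by the filter on low counts. GENCODE 29 places 2292 of the 2698 exon bases of SRXN1 inside AL121758.1, another gene on the same strand, which had 0 to 2 reads. How reads in shared bases were counted is not given in the sources used here, so these counts do not show whether SRXN1 was transcribed.

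OSGIN1, an oxidative stress-induced growth inhibitor, had 5.61 and 7.16 CPM in control and 3.89 and 4.39 CPM with the CELF2 ASO. The groups did not overlap, and the log2 fold change was -0.62 ± 0.18 (SE) on 105 to 168 reads per library.

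Across the set, 9 of the 10 genes passed the filter, 7 were called lower and 1, NFE2L2, higher, and 8 had groups that did not overlap. Of all tested genes 55.6% were called, 28% lower and 27.6% higher, and 79.6% had groups that did not overlap. Because the genes were chosen with this contrast known, nothing is read from these counts. The call of NFE2L2 was lost without either control library, with no filter on low counts and with DESeq2. The median log2 fold change was -0.58 over the 9 genes and 0.04 over all genes tested. Scaling by library totals alone moved the median of all genes up by 0.12, and each of the 9 genes kept its direction there. A further shared feature was the order of the CELF2 ASO libraries. All 9 genes were higher in library 2 than in library 1, by 1.09-fold for GCLC to 1.35-fold for HMOX1, where 49.5% of all tested genes were. The direction of this difference was thus toward control in the genes that were lower and away from control in NFE2L2. The order was not particular to this set. Among the tested heme breakdown and iron partners of HMOX1, HMOX2 was 1.15-fold and FTL 1.13-fold higher in library 2. FLVCR1 alone of these partners was lower there, at 0.817 of its level in library 1. The order rests on a single pair of libraries and was not tested.

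**Figure D3:**
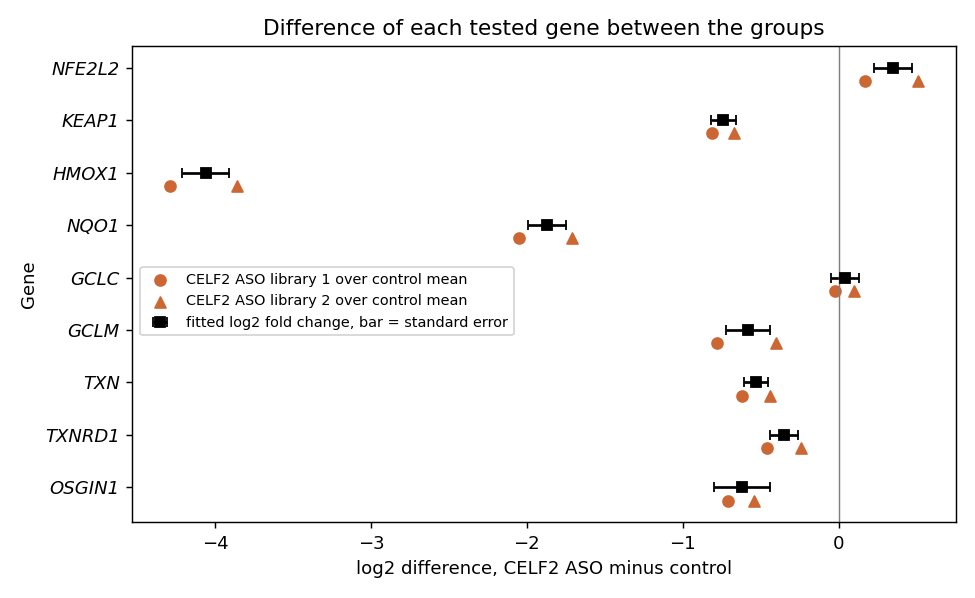
Fitted log2 fold change of each of the 9 tested genes (black squares, bars are standard errors) and the log2 ratio of each CELF2 ASO library to the control mean (orange circle for library 1, triangle for library 2). In each gene the triangle lies to the right of the circle, and HMOX1 at -4.06 and NQO1 at -1.87 stand left of the others.

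The genes around this set were taken from 6 lists of 101 genes, of which 88 could be tested. The lists were written with earlier results of these data known. Their counts and p-values here and below are therefore a description and not independent evidence. Of these, 22 rose and 47 fell, which is 25% and 53.4% of the tested members against 27.6% and 28% of all tested genes, and their median log2 fold change was -0.39. In the list of other NRF2 target genes most tested members lay on the lower side. Of 16 tested members 11 fell and 2 rose, with a median of -0.46. Transketolase, TKT, fell from 1840 and 1900 CPM to 527 and 525 CPM (log2 fold change -1.83 ± 0.07 SE, edgeR adjusted p = 6.18e-06). The microsomal epoxide hydrolase EPHX1 fell 1.84-fold (edgeR adjusted p = 6.69e-05). The 2 genes that rose were IDH1, the cytosolic isocitrate dehydrogenase, 3.58-fold (edgeR adjusted p = 4.79e-05), and UGDH, which makes UDP-glucuronate, 1.86-fold (edgeR adjusted p = 0.000389). AKR1B10, ALDH3A1 and GSTM3 had no read. Some further NRF2 targets were placed in the lists below, where PRDX1 fell and SLC7A11 and SESN2 rose.

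The partners of HMOX1 in heme breakdown fell as well, though far less. 7 of the 8 tested members fell, which is 87.5%, against 28% of all tested genes. No member rose, and the median log2 fold change was -0.76. HMOX2, the constitutive heme oxygenase, fell from 118 and 117 CPM to 60.3 and 69.1 CPM (log2 fold change -0.86 ± 0.09 SE, edgeR adjusted p = 0.000168). BLVRB, a biliverdin reductase, fell 1.69-fold (edgeR adjusted p = 0.000255). FTL, the ferritin light chain that stores the released iron, fell 2.04-fold, from 1750 and 1700 CPM to 797 and 897 CPM (edgeR adjusted p = 6.19e-05). The member that did not pass was FTH1, the ferritin heavy chain, which lay in the other direction, with 2.29 and 1.83 CPM in control and 2.74 and 3.81 CPM with the CELF2 ASO (log2 fold change 0.65 ± 0.24 SE, edgeR adjusted p = 0.0529). Its groups did not overlap. FTH1 has many processed copies in the genome, so its low level is uncertain.

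Among genes that control NRF2, 9 of the 17 that could be tested rose, 6 fell, and the median was 0.31. These are 52.9% and 35.3%, against 27.6% and 28% of all tested genes. NFE2L1, an NRF2 relative known for driving proteasome genes, rose 5.59-fold, from 204 and 218 CPM to 1120 and 1240 CPM (edgeR adjusted p = 4.98e-06). The ubiquitin ligase gene SYVN1, whose product can degrade NRF2, rose 1.81-fold (edgeR adjusted p = 9.12e-05), and BACH2, a B cell repressor related to BACH1, rose 2.4-fold (edgeR adjusted p = 0.000341). DPP3, whose product can occupy KEAP1, fell 3.06-fold (edgeR adjusted p = 9.46e-06), and the KEAP1-binding phosphatase PGAM5 fell 2-fold (edgeR adjusted p = 3.86e-05). The small MAF gene MAFK fell 3.04-fold (edgeR adjusted p = 0.000116). Several further genes were picked after their values were seen. BACH1 rose from 79.8 and 73.2 CPM to 116 and 141 CPM (log2 fold change 0.74 ± 0.11 SE, edgeR adjusted p = 0.000909), and the small MAF gene MAFG rose 1.65-fold (edgeR adjusted p = 0.000601). The ligase genes CUL3 and RBX1, whose products work with KEAP1, fell 1.56-fold (edgeR adjusted p = 0.000443) and 2-fold (edgeR adjusted p = 0.000123).

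Of 24 tested genes of the glutathione system 11 fell and 6 rose, with a median of -0.24. That is 45.8% and 25%, against 28% lower and 27.6% higher over all tested genes. The largest of the named rises was CHAC1, an enzyme that degrades glutathione and is a known ATF4 target, from 6.43 and 7.42 CPM to 79.1 and 75.5 CPM (log2 fold change 3.48 ± 0.11 SE, edgeR adjusted p = 4.17e-06). SLC7A11 and SLC3A2, the subunits of the cystine importer, rose 4.92-fold (edgeR adjusted p = 5.65e-06) and 1.7-fold (edgeR adjusted p = 9.04e-05). SLC7A11 is driven by both NRF2 and ATF4. Glutathione synthetase, GSS, fell 2.23-fold (edgeR adjusted p = 9.14e-05), the glutaredoxin GLRX3 fell 2.67-fold (edgeR adjusted p = 5.07e-05) and the transferase GSTO1 fell 2.72-fold (edgeR adjusted p = 7.18e-05). GSTP1, a transferase abundant in many tumours, had no read in any library.

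Among 19 thioredoxin and peroxiredoxin genes 5 rose and 10 fell, and the median was -0.51. Shares were 26.3% and 52.6%, against 27.6% and 28% of all tested genes. PRDX1, a cytosolic peroxide reductase and NRF2 target, fell 4.86-fold, from 387 and 375 CPM to 75.4 and 81.4 CPM (edgeR adjusted p = 4.77e-06). PRDX6 fell 1.8-fold (edgeR adjusted p = 9.22e-05) and TXNDC17 3.14-fold (edgeR adjusted p = 4.01e-05). PRDX4, the peroxiredoxin of the endoplasmic reticulum, rose 2.99-fold (edgeR adjusted p = 2.27e-05). SESN2, a sestrin induced by ATF4 and by NRF2, rose 8.44-fold (edgeR adjusted p = 2.68e-06), and the methionine sulfoxide reductase MSRB2 rose 1.8-fold (edgeR adjusted p = 0.00563), a call lost without control library 1 (adjusted p = 0.0643). Of 4 tested superoxide dismutase and catalase genes 2 fell, which is 50%, against 28% of all tested genes. SOD1 fell 2.87-fold (edgeR adjusted p = 2.68e-05) and SOD2 1.69-fold (edgeR adjusted p = 0.000341).

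**Figure D4:**
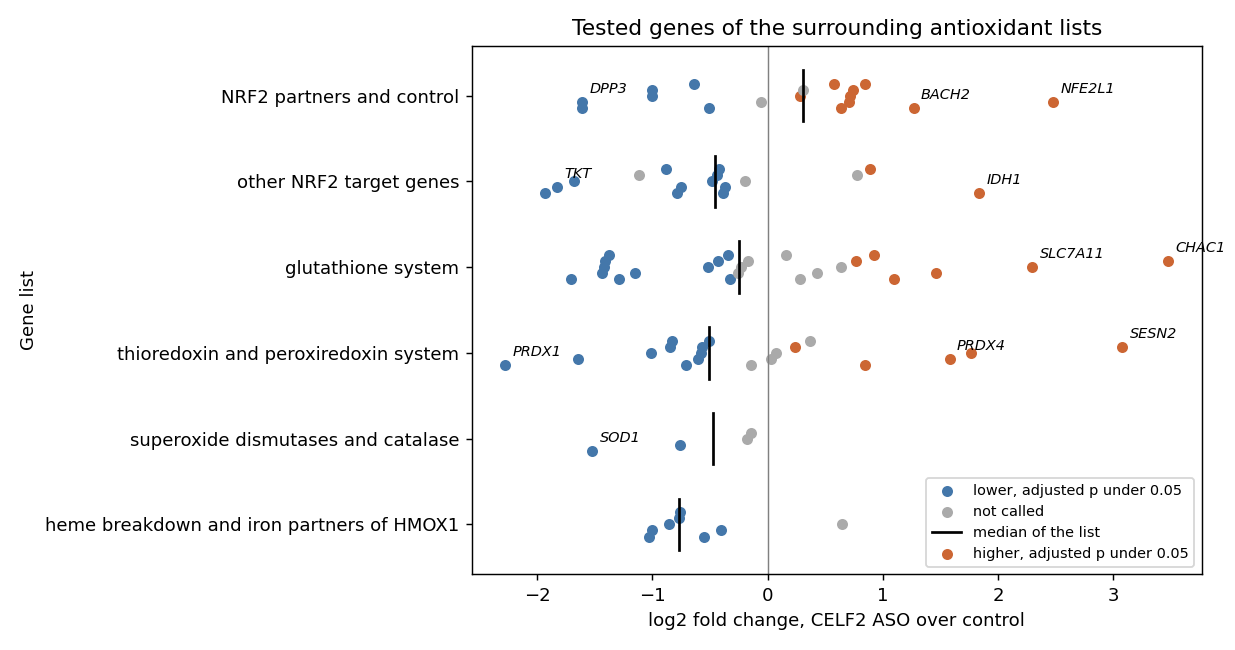
Log2 fold change of the 88 tested genes of the 6 surrounding lists, 1 point per gene, coloured by call, with a black line at each list's median. Medians lie at -0.76 for heme breakdown and iron partners, -0.51 for thioredoxin and peroxiredoxin genes and 0.31 for NRF2 partners and control, and CHAC1, SESN2, NFE2L1 and SLC7A11 lie farthest to the right.

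The transcripts themselves were searched for GU-rich stretches, which CELF proteins are known to bind. In the longest coding transcript of each gene in GENCODE 29, TGTGTGT was found in HMOX1 alone of the 10, against 37.9% of 12739 transcripts of tested genes. Its 24 overlapping matches lay in bases 2 to 60 of the 1822 bases of the annotated transcript HMOX1-201, and the other coding transcript, HMOX1-202, had none. Counts per gene do not show which of these transcripts, or which 5′ end, was present. Whether HMOX1 RNA in these cells carried the stretch is therefore unknown. TGTTTGT was found at 1 place in NFE2L2 and at 2 places each in GCLC and TXNRD1, against 36.8% of transcripts. These are matches of letters, and no binding was measured.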

How the data were processed

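RNA sequencing read counts per gene were deposited by the authors as 1 table of 79029 rows, whole numbers that were not normalized. Per the submitters' processing notes, STAR 2.7.11b, Subread, featureCounts 2.0.8, Salmon 1.10.0, bcl2fastq and GRCh38 were used. Which annotation release and strand setting were used, and how shared reads were handled, is not given in the sources used here. The labels name both poly(A) selection and ribosomal RNA removal. The 97 rows that are not Ensembl genes held 1 to 3 counts per library and were left out. Positions and merged exon lengths came from GENCODE 29 on GRCh38.

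Counts were fitted in R 4.3.3 with edgeR 4.0.16 (filterByExpr, minimum count 10 and minimum total 15, TMM scaling, robust quasi-likelihood test, two-sided, no covariate), with Benjamini-Hochberg adjustment over all 19511 genes and a threshold of 0.05. Standard errors are the absolute log2 fold change over the square root of F. The fit was tested on simulated data. DESeq2 1.42.0, limma 3.58.1, other scalings and filters, the label's number as a block and leaving out each library were alternatives. Replicates of a group differed beyond sampling noise (chi-square per degree of freedom 3.85 in control and 22.5 with the CELF2 ASO). Total counts per library, 23599190 to 29161298, set the counting precision. The genes and lists were chosen with earlier results of these data known. Named from each list were the 3 genes with the smallest p in each direction among those called, and the 5 protein-coding genes nearest to HMOX1 (mean log2 CPM 1 or more). BACH1, MAFG, CUL3, RBX1, FTH1, AKR1B10, ALDH3A1, GSTM3 and GSTP1 were named after their values were seen. One gene that the rule would name is not reported here.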

Additional observations from a re-analysis of the deposited data

How the results depend on the processing

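Of 99 values of the 9 tested genes under 11 alternatives, 96 kept their direction. The exceptions were GCLC, at -0.016 with no filter and from -0.040 to 0.104 over the fits that leave out 1 library. The range was -4.31 to -3.86 for HMOX1, -2.07 to -1.7 for NQO1 and 0.15 to 0.52 for NFE2L2. Between 5 and 7 genes of the set were called lower and 0 or 1 higher; the higher call of NFE2L2 was lost with no filter, with DESeq2 and without either control library. Of 319 values of CELF2 and the named list genes, 318 kept their call, the exception being MSRB2. Over all genes, 3564 to 6214 were called higher when 1 library was left out, against 5388, with the lowest count without control_LNA_ASO replicate 1. With the label's number as a replicate block 5411 genes were higher and 5379 lower. Deviations of same-numbered libraries had a correlation of 0.0343, so the numbers were not taken to pair the libraries. Depth limits SRXN1, with 1 to 5 reads per library.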
